A study of Schmidtea mediterranea with 60 samples.

Results

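Of the 28742 transcripts in the count table, 216 rose at least 2-fold at wounds of control planarians only by 48 hours post amputation (hpa) and kept less than 0.5 of that rise in the libraries labelled bmp4 RNAi. They were chosen on values of these libraries. Counts were scaled to the same total in every library, as CPM (the count a transcript would have in a library of 1000000 counts), 0.5 CPM was added to each group mean, and log2 values were taken. A member had a control level at 48 hpa at least 1 log2 unit above that at 0 hpa, a control change of less than 1 log2 unit at 3, 6, 16 and 24 hpa, and every control library at 48 hpa above every control library at 0 hpa. Its 0 hpa levels differed by less than 0.6 log2 units between conditions and by less than 4-fold between control replicates. Last, the libraries labelled bmp4 RNAi had to show, between the same 2 times, less than 0.5 of the control rise on the log2 scale. Without that last condition 281 transcripts qualified, and the 65 others, which kept at least 0.5 of the rise, are given beside the members for comparison.

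The study followed transcripts at wounds with and without RNA interference against bmp4. Animals of the CIW4 strain of Schmidtea mediterranea were fed liver mixed with double-stranded RNA 4 times and were cut 7 days after the last feeding. The RNA matched either bmp4 or, as the control, unc-22 of the nematode C. elegans. Polyadenylated RNA was taken from anterior-facing wounds of post-pharyngeal (tail) fragments at 6 times, 0 and 3 hpa, 6 and 16 hpa, and 24 and 48 hpa, in 5 replicates per group that each pooled 5 wounds, 60 libraries in all. CIW4 is an asexual clonal line, and fed double-stranded RNA acts throughout the animal rather than in a single cell type. Nothing in the labels says whether replicates came from separate cultures, so p-values measure the spread between these pools.

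Planarians replace lost body parts from neoblasts, which are dividing stem cells spread through the body. A wound first switches on a short response that any injury evokes. Where tissue is missing, a slower phase follows in which neoblasts divide and gather at the wound and a blastema, the bud of new tissue, grows out. Bmp4 belongs to the bone morphogenetic proteins, which cells secrete, and it patterns the back-to-belly axis of many animals, and equinox is a planarian gene whose transcript rises at wounds. Transcripts that rise late at a control wound fall within the time at which the slower phase is known to unfold. In these bulk samples fewer cells of a kind and less RNA per cell cannot be told apart.

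Whether the labels held was examined first, at the gene whose double-stranded RNA was fed. The bmp4 transcript (dd_Smed_v6_17402_0_1) measured 2.81, 2.58, 2.72, 2.87 and 3.10 CPM in the control libraries at 0 hpa. The libraries labelled bmp4 RNAi gave 8.73, 5.83, 6.40, 5.84 and 6.84 CPM at that time, every one of them above every control (two-sided exact permutation on log2 of CPM + 1, p = 0.00794, adjusted p = 0.0106 over 12 tests). That is opposite to the label, and reads of the fed double-stranded RNA, if any were counted, cannot be told apart here from the animals' own transcript. Whether labels were mixed was not tested. At 6 hpa all 5 libraries labelled bmp4 RNAi lay below every control, with means of 1.09 and 2.69 CPM (n = 5, exact permutation adjusted p = 0.0106). At 48 hpa the direction was also that of the label, where control libraries averaged 6.06 ± 0.685 CPM and those labelled bmp4 RNAi 1.76 ± 0.993 CPM (mean ± SD, n = 5, exact permutation adjusted p = 0.0106). At 3, 16 and 24 hpa there were 4, 2 and 2 libraries labelled bmp4 RNAi above every control library. For that reason they are named by their label alone, as the bmp-labelled libraries, and the counts of members called with libraries at 3, 16 or 24 hpa were repeated without those 8 libraries. The equinox transcript (dd_Smed_v6_20318_0_1) was lower in all 5 bmp-labelled libraries than in every control library at each of the 6 times (exact permutation adjusted p = 0.0106 each).

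Library depth ranged from 5920900 to 23912275 counts. The smallest library was replicate 4 of the bmp-labelled libraries at 3 hpa, and the next smallest held 12563015 counts. The share of counts on the study's 8 mitochondrial transcripts ranged from 0.208% to 0.269% in control at 0 hpa, from 0.327% to 0.433% in control at 24 hpa and from 0.300% to 0.544% in the bmp-labelled libraries at 24 hpa. At 48 hpa it ranged from 0.320% to 0.559% in control and from 0.278% to 0.711% in the bmp-labelled libraries. Its part in the results was not tested.

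The members spanned a wide range of levels. In control at 0 hpa 40 members averaged under 1 CPM, 89 averaged 1 to 10 CPM, 75 averaged 10 to 100 CPM and 12 averaged at least 100 CPM. Together they took 0.515% ± 0.0275 of all counts in control at 0 hpa and 1.202% ± 0.0496 in control at 48 hpa (mean ± SD, n = 5). Their share in the bmp-labelled libraries was 0.533% ± 0.0327 at 0 hpa and 0.716% ± 0.0199 at 48 hpa. The most abundant member measured 554.5 ± 62.7 CPM in control at 0 hpa and 1265 ± 72.7 CPM in control at 48 hpa. The bmp-labelled libraries held 567.8 ± 65.8 CPM at 0 hpa and 800.3 ± 37.7 CPM at 48 hpa.

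The values that chose the members are given without a test. The control rise from 0 to 48 hpa had a median of 1.18 log2 units and ranged from 1.0006 to 3.12. Most rises were modest, since 191 members rose less than 3-fold and 8 rose at least 4-fold. Over the same span the median change in the bmp-labelled libraries was 0.35 log2 units, and the median member kept 29.3% of its control rise. There were 89 members that kept under 25% and 14 whose level at 48 hpa lay below that at 0 hpa. At 48 hpa every bmp-labelled library lay below every control library for 189 members, where 13.3% of all transcripts tested did so. Among 212 members tested, 205 were called lower in the bmp-labelled libraries at 48 hpa, where the share over all transcripts was 18.6%, and nothing is read from either count because the rule used these libraries.

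**Figure D1:**
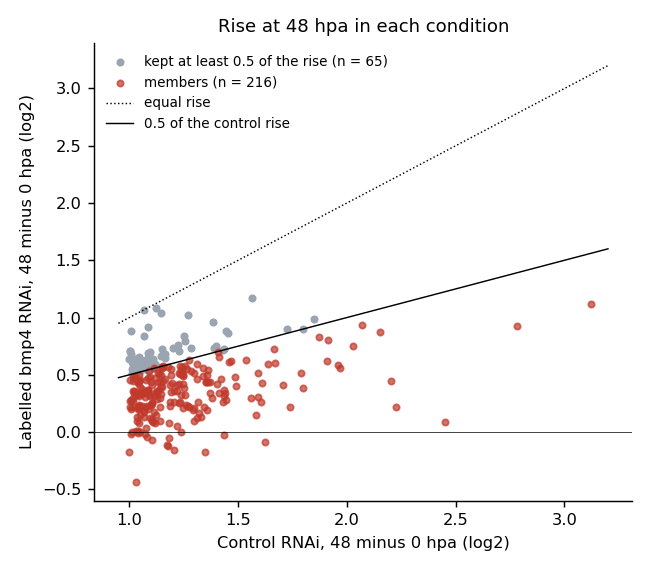
Change from 0 to 48 hpa (log2 of mean CPM + 0.5) in control RNAi (horizontal axis) and in the bmp-labelled libraries (vertical axis) for each of the 281 transcripts. The 216 members lie below the solid line by the rule itself, most of them between control rises of 1 and 1.5, and 14 lie below 0 on the vertical axis.

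Both thresholds cut through a dense range of values. The member nearest the limit kept 49.9% of its control rise and the next transcript outside kept 50.01%. There were 52 members that kept 40% to 50% of the rise, against 38 transcripts outside that kept 50% to 60%. The smallest control rise was 1.0006 log2 units, and 69 members rose by 1 to 1.1, while 84 transcripts outside rose by 0.9 to 1 and met every other condition. Scaling the libraries by trimmed mean of M-values (TMM) factors in place of totals left 140 members, of which 131 were shared.

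The mean level over the members was similar in both conditions up to 16 hpa. The mean log2 level over the 216 members, relative to control at 0 hpa, rose in control from 0.06 ± 0.04 at 3 hpa to 0.18 ± 0.07 at 6 hpa and 0.44 ± 0.03 at 16 hpa (mean ± SD, n = 5 libraries). The same mean in the bmp-labelled libraries was 0.10 ± 0.09, 0.11 ± 0.06, 0.21 ± 0.15 and 0.51 ± 0.06 for 0, 3, 6 and 16 hpa, in that order. The ranges of the 2 conditions overlapped at each of these times. The members' mean had thus risen by 16 hpa in both conditions. The rule bounded the control values before 48 hpa from above.

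At 24 hpa the conditions came apart. The 5 control libraries stood at 0.62, 0.59, 0.60, 0.56 and 0.66 log2 units above control at 0 hpa. The 5 bmp-labelled libraries stood at 0.35, 0.55, 0.55, 0.27 and 0.34. All 5 lay below every control library, but replicates 2 and 3 lay just under the lowest control and the other 3 lay well below them. At 48 hpa the control libraries reached 1.27 ± 0.06 and the bmp-labelled libraries 0.45 ± 0.05, close to their level at 16 and 24 hpa.

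**Figure D2:**
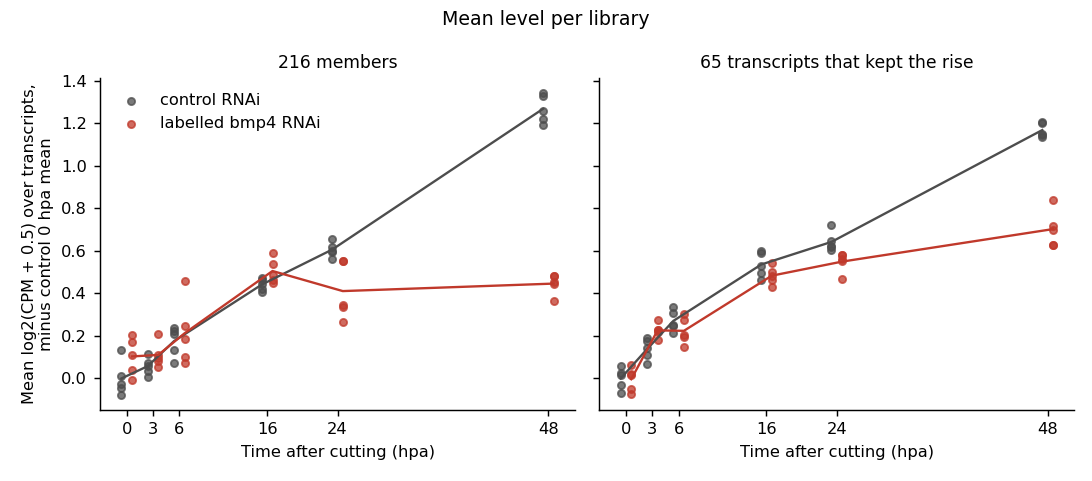
Mean log2(CPM + 0.5) over the 216 members (left) and over the 65 transcripts that kept the rise (right), relative to the control mean at 0 hpa, by time after cutting. Each point is 1 library and lines join group means. On the left both conditions rise together to 16 hpa, after which control goes on to 1.27 at 48 hpa and the bmp-labelled libraries stay between 0.27 and 0.55.

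The same course held for most members singly. The median member of the control libraries stood 0.10, 0.21, 0.48, 0.65 and 1.18 log2 units above its 0 hpa level at 3, 6, 16, 24 and 48 hpa. In the bmp-labelled libraries the medians were 0.05, 0.14, 0.43, 0.32 and 0.35. The median over all transcripts with a count lay between -0.02 and 0.05 in every such comparison. From 24 to 48 hpa the median step was 0.60 log2 units in control and 0.01 in the bmp-labelled libraries, where 48.6% of the 216 members were lower at the later time. The rule itself fixed a positive step in control for every member and limited the level of the bmp-labelled libraries at 48 hpa, so these steps are a description.

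**Figure D3:**
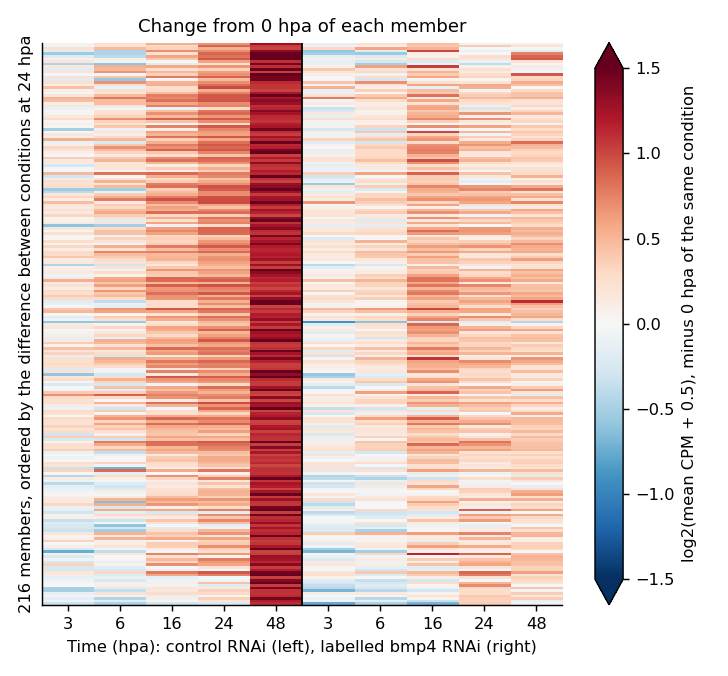
Change of each of the 216 members from 0 hpa of its own condition (colour, log2 of mean CPM + 0.5) at 3, 6, 16, 24 and 48 hpa in control RNAi (left) and in the bmp-labelled libraries (right), 1 row per member, ordered by the difference between conditions at 24 hpa. The control columns darken from a median of 0.48 at 16 hpa to 1.18 at 48 hpa, whereas on the right the medians at 16, 24 and 48 hpa are 0.43, 0.32 and 0.35.

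The bmp-labelled libraries at 3, 6, 16 and 24 hpa played no part in the rule, so they could be tested. The control libraries of these times did, since the rule held their rise under 1 log2 unit. A comparison with them is therefore not free of the rule. At 24 hpa 74 of the 212 members tested (34.9%) were called lower in them than in control and 4 were called higher (0 without bmp-labelled replicate 2), against 6.5% lower and 10.2% higher over all 18510 transcripts tested (edgeR quasi-likelihood test, Benjamini-Hochberg adjusted p under 0.05). The estimate lay below 0 for 176 members and its median was -0.23 log2 units, where the median over all transcripts was 0.00. Of the 65 transcripts that kept the rise, 14 (21.5%) were called lower and 4 higher, with a median of -0.15, and the difference between the sets was not tested. Without the 2 libraries at 24 hpa whose bmp4 transcript lay above every control, 58 members were called lower.

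Before 24 hpa fewer members were called. At 3 hpa 7 members (3.30%) were called lower and 8 higher, beside 4.32% lower and 6.95% higher of all transcripts. At 6 hpa 28 (13.2%) were called lower and 10 higher, beside 7.43% and 9.67% of all transcripts. At 16 hpa 14 (6.60%) were called lower and 8 higher, beside 9.56% and 9.68%. The split turned on the scaling, since library totals without TMM factors gave 3 lower and 15 higher at 3 hpa, 15 lower and 16 higher at 6 hpa, and 8 lower and 12 higher at 16 hpa. The medians over members were -0.03, 0.02 and 0.00 log2 units at 3, 6 and 16 hpa. Of the 65 transcripts that kept the rise, 0, 13 and 11 were called lower at these times and 5, 7 and 3 higher. Their medians were -0.03, -0.16 and -0.13 log2 units. The share called lower was thus larger for these transcripts than for the members at 6 and 16 hpa, and the difference was not tested. In all 34 members (16.0%) were called lower at 1 or more of 3, 6 and 16 hpa, as were 13.9% of all transcripts tested. There were 51 members (24.1%) called lower at 24 hpa alone, beside 2.59% of all transcripts, and 127 (59.9%) called lower at none of the 4 times, beside 83.5%. The count called lower at 3 hpa was 1 without the 4 libraries with a high bmp4 transcript, a fit in which the 1 library left is assumed to vary like the other groups, and 4 without any of 5 single libraries (control replicate 1 or 4, or bmp-labelled replicate 2, 3 or 4). The count at 6 hpa was 18 without control replicate 4 and 16 without bmp-labelled replicate 3. The count at 16 hpa was 8 without the 2 libraries with a high bmp4 transcript, 8 without bmp-labelled replicate 2 or 3, 9 without bmp-labelled replicate 5 and 22 without bmp-labelled replicate 4. The counts called higher moved as well. At 6 hpa they were 5 without control replicate 1, 6 without control replicate 3 and 4 without bmp-labelled replicate 3. At 16 hpa they were 4, 5 and 2 without control replicates 1, 2 and 4. They were 17, 3, 1 and 3 without bmp-labelled replicates 1, 2, 3 and 5 at that time, and 1 without the 2 libraries with a high bmp4 transcript.

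**Figure D4:**
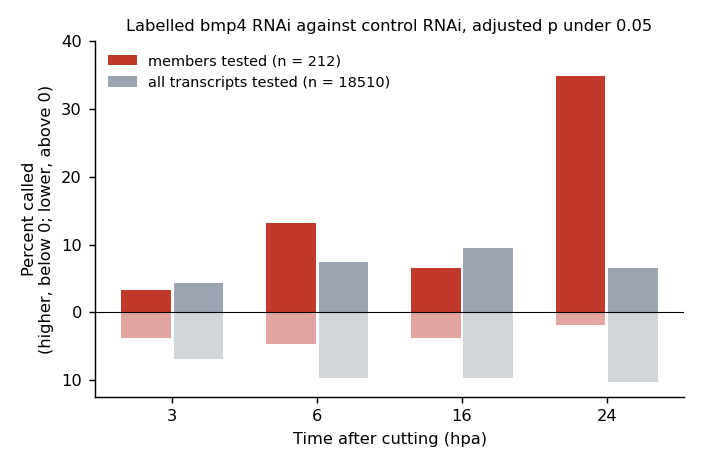
Percent of the 212 members tested (red) and of all 18510 transcripts tested (grey) called lower (solid, above 0) or higher (pale, below 0) in the bmp-labelled libraries than in control at each time. At 24 hpa 34.9% of members were called lower against 6.5% of all transcripts, and at 16 hpa 6.6% against 9.56%.

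Complete separation of the libraries gave a like course. Every bmp-labelled library lay below every control library for 4, 13, 5 and 41 of the 216 members as time went from 3 through 6 and 16 to 24 hpa. Over all transcripts tested the shares were 2.33%, 4.96%, 5.65% and 3.92%. The opposite order was seen for 10, 12, 15 and 3 members, beside 8.92%, 6.96%, 11.6% and 6.79% of all transcripts. Without the libraries with a high bmp4 transcript 11 members at 16 hpa and 53 at 24 hpa lay wholly below control, with 3 bmp-labelled libraries left at each time, beside 7.03% and 5.93% of all transcripts.

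The course within the bmp-labelled libraries was tested next. From 3 to 24 hpa, a comparison whose libraries all lie outside the rule, 47.6% of 212 members were called higher and 0 lower, against 10.6% and 7.86% of all transcripts (edgeR, with 2 members lower at an unadjusted p under 0.05, and 0 lower by DESeq2). The median change was 0.37 log2 units. Of the 65 transcripts that kept the rise, 34 (52.3%) were called higher and 0 lower (1 lower at an unadjusted p under 0.05). Their median was 0.34, so this rise was not particular to the members, and the difference between the sets was not tested. Without the 6 libraries at these times with a high bmp4 transcript, 33 were called higher and the median was 0.44, where the 1 library left at 3 hpa is assumed to vary like the other groups. Against 0 hpa, whose libraries the rule did use, 17, 53 and 124 members were called higher after 3, 6 and 16 hours, and 48.6% of them after 24 hours (5.97%, 7.75%, 14.7% and 18.1% of all transcripts). Called lower were 10, 7, 0 and 0 (4.56%, 5.4%, 13.5% and 14.5% of all transcripts, with 24, 17, 4 and 0 members at an unadjusted p under 0.05, and 11, 8, 1 and 0 members by DESeq2), and at 3 hpa the median change was 0.01. The count higher at 3 hpa was 9 without replicate 1 or without replicate 5 at 3 hpa, and 1 without the 4 libraries with a high bmp4 transcript, with 1 library left. The count lower at 3 hpa was 6 without replicate 3 or without replicate 5.

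The step from 16 to 24 hpa was compared after the pattern had been seen. Among the bmp-labelled libraries 38 members were called lower at 24 than at 16 hpa and 14 higher, against 9.61% and 12.5% of all transcripts, with a median of -0.07 log2 units. The rule used the control libraries of both times, so control is given without a test, with a median change of 0.16 log2 units over the same span. The count of 38 fell to 2, and that of 14 to 7, without the 4 libraries with a high bmp4 transcript. The 14 fell to 8 without replicate 2 at 24 hpa. The count of 38 fell to between 20 and 24 without replicate 3 or 5 at 16 hpa or without replicate 4 or 5 at 24 hpa.

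The change from 0 hpa was also compared directly between conditions. At 24 hpa 21 members had risen less in the bmp-labelled libraries and 0 had risen more (0.735% and 1.18% of all transcripts, edgeR interaction, with 97 members less and 1 more at an unadjusted p under 0.05, and 0 more by DESeq2). At 3, 6 and 16 hpa the counts that rose less were 0, 1 and 1 (0.027%, 0.211% and 0.405% of all transcripts, with 22, 28 and 20 members at an unadjusted p under 0.05, and 0, 1 and 1 members by DESeq2). Members that rose more at an unadjusted p under 0.05 numbered 3, 4 and 0. The medians were -0.12, -0.10 and -0.09 log2 units. Estimates lay below 0 for 69.3%, 67.9% and 67.9% of members, beside 48.8%, 45.4% and 48.9% of all transcripts. The rule favoured members with a high 0 hpa level in the bmp-labelled libraries, whose median lay 0.08 log2 units above control, so this comparison leans towards a smaller rise. Without the 2 libraries at 24 hpa with a high bmp4 transcript the count there was 16, and without the 2 at 16 hpa the count there was 0. The count at 24 hpa was 12 without control replicate 2 at 0 hpa, control replicate 3 at 24 hpa or bmp-labelled replicate 1 at 24 hpa, and 11 without replicate 4 of the latter group.

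Calls at 24 hpa were also counted by the level in control at 0 hpa. Of the members at 100 CPM or more in control at 0 hpa, 10 of 12 were called lower, and of those at 10 to 100 CPM 42 of 75 were. Of those at 1 to 10 CPM 18 of 89 were called lower, and of those under 1 CPM 4 of the 36 tested. Over all transcripts tested in the same bands 10.03%, 8.15%, 5.23% and 3.43% were called lower, so the share called lower also fell with the level for transcripts at large. The median difference hardly varied between these bands, at -0.26, -0.23, -0.21 and -0.28 log2 units, whereas single members under 1 CPM ranged from -1.64 to 1.65. Members that kept under 25% of the rise at 48 hpa had a median of -0.24 at 24 hpa with 17 of 86 called lower, and those that kept 25% to 50% had a median of -0.23 with 57 of 126 called lower. The members under 1 CPM kept less of the rise than the others (median 21.2%, against 40.8% at 100 CPM or more), so level and loss were not separated in these counts.

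The annotations used here covered 1200 transcripts of the count table, a part of the study's table. They held 16 of the 216 members, and 15 of these had a match to a human or mouse protein or a known domain. Their roles below are those of the mammalian proteins, and each planarian transcript is named by its match. Of these 15, 14 had enough counts to be tested. At 24 hpa 3 of the 14 were called lower in the bmp-labelled libraries, namely PCDH1, ANK1 and NOL4L. The shares were 34.9% of all members tested and 6.5% of all transcripts tested.

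Matches to proteins of the cell surface and its skeleton included 2 of the 3, and also LRRC4B and LRP3, which were not called at 24 hpa. The PCDH1 match (dd_Smed_v6_10467_0_1), a protocadherin that holds cells together, measured 34.1, 38.7, 35.7, 35.8 and 37.0 CPM in control at 24 hpa. It measured 22.9, 30.7, 31.6, 24.3 and 30.8 CPM in the bmp-labelled libraries, all below every control (log2 difference -0.39 ± 0.08 SE, edgeR adjusted p = 0.000314). At 16 hpa its levels had overlapped, with 33.3 ± 3.23 CPM in control and 32.4 ± 2.53 CPM in the bmp-labelled libraries. At 48 hpa it reached 45.1 ± 3.42 CPM in control and 25.1 ± 2.65 CPM in the bmp-labelled libraries, so that its highest mean in the latter was the one at 16 hpa.

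The ANK1 match (dd_Smed_v6_10291_0_1), an ankyrin, which ties membrane proteins to the spectrin skeleton, measured 18.4, 19.4, 19.3, 16.6 and 21.7 CPM in control at 24 hpa. The bmp-labelled libraries gave 13.2, 16.6, 18.8, 11.4 and 11.2 CPM, of which replicate 3 lay within the control range and replicates 1, 2, 4 and 5 below it (log2 difference -0.44 ± 0.12 SE, edgeR adjusted p = 0.00366). Within those libraries it stood at 19.98 ± 2.08 CPM at 16 hpa and fell by 0.46 ± 0.12 on the log2 scale to 24 hpa (edgeR adjusted p = 0.00325). Without the 2 libraries at 24 hpa with a high bmp4 transcript the difference from control was -0.35 (edgeR adjusted p = 0.0692). The adhesion protein LRRC4B (dd_Smed_v6_10042_0_1), known from synapses, showed no difference at 24 hpa that passed the test, at 16.3 ± 2.29 CPM in control and 15.8 ± 4.62 CPM in the bmp-labelled libraries. At 48 hpa, a time the rule used, its levels were 30.6 ± 3.87 and 17.5 ± 1.87 CPM.

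The LRP3 match (dd_Smed_v6_10049_0_1), of the low-density lipoprotein receptor family, was called lower in the bmp-labelled libraries at 6 and 16 hpa but not at 24 hpa. At 3 hpa its log2 difference from control was 0.18 ± 0.09 SE (edgeR adjusted p = 0.2). It was lower in the bmp-labelled libraries at 6 hpa, at 21.7 ± 2.53 against 25.1 ± 1.89 CPM (log2 difference -0.25 ± 0.08 SE, edgeR adjusted p = 0.0286), and at 16 hpa, at 23.5 ± 1.57 against 26.9 ± 0.806 CPM (-0.26 ± 0.08, edgeR adjusted p = 0.0223). At 24 hpa it measured 27.5 ± 3.66 CPM against 27.7 ± 0.784 CPM in control, a difference within the spread. Under other settings with no single library left out, 2 of 6 did not call LRP3 at 6 hpa and 2 of 7 did not at 16 hpa. The adjusted p at 6 hpa rose to as much as 0.091 without 1 of 6 libraries (control replicates 2, 4 and 5 and bmp-labelled replicates 1, 3 and 4), and at 16 hpa it rose to 0.0857 without the 2 libraries with a high bmp4 transcript and to as much as 0.0678 without either of bmp-labelled replicates 2 and 3.

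Regulators of transcription formed the next group. The SOX5 match (dd_Smed_v6_10201_0_1), a transcription factor with an HMG box, measured 39.99, 44.9, 38.3, 40.5 and 44.2 CPM in control at 24 hpa. It measured 38.8, 45.7, 43.9, 40.6 and 34.6 CPM in the bmp-labelled libraries, a range that enclosed the control values (log2 difference -0.05 ± 0.08 SE, edgeR adjusted p = 0.755). From 3 to 24 hpa it rose in the bmp-labelled libraries by 0.44 ± 0.08 log2 units (edgeR adjusted p = 5.49e-05). At 6 hpa all of its bmp-labelled libraries lay above every control (edgeR adjusted p = 0.132). At 48 hpa they lay below every control, at 60.4 ± 6.88 CPM in control and 36.7 ± 5.42 CPM in the bmp-labelled libraries.

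The BCL11A match (dd_Smed_v6_10320_0_1), a zinc-finger repressor, measured 13.3 ± 1.54 CPM in control and 15.2 ± 1.36 CPM in the bmp-labelled libraries at 24 hpa, and 24.2 ± 2.50 and 16.9 ± 1.39 CPM at 48 hpa. The ZMIZ2 match (dd_Smed_v6_10016_0_1), a transcriptional coactivator, measured 66.2 ± 1.91 and 62.4 ± 5.86 CPM at 24 hpa, and 98.9 ± 3.18 and 65.8 ± 5.76 CPM at 48 hpa. Neither difference at 24 hpa passed the test. The NOL4L match (dd_Smed_v6_10255_0_1) is placed beside these regulators, but no role in transcription was established for it here. It measured 23.5, 21.0, 20.3, 22.5 and 22.8 CPM in control at 24 hpa. In the bmp-labelled libraries it measured 15.8, 21.6, 19.3, 17.7 and 16.9 CPM, of which replicate 2 overlapped the control range (log2 difference -0.29 ± 0.08 SE, edgeR adjusted p = 0.00343). Without the 2 libraries with a high bmp4 transcript its difference was -0.23 (edgeR adjusted p = 0.067). Its 5 values at 48 hpa in the bmp-labelled libraries were close together, at 19.8, 19.0, 19.4, 19.0 and 19.4 CPM, against 36.5 to 42.1 CPM in control.

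Proteins of the cell cycle and of DNA repair followed. The CDC20 match (dd_Smed_v6_10335_0_1), which switches on the anaphase-promoting complex, measured 18.1, 17.8, 17.1, 16.6 and 18.5 CPM in control at 24 hpa. The 5 bmp-labelled libraries measured 14.9, 14.5, 19.5, 10.3 and 11.6 CPM, 4 of them below every control and replicate 3 above every control (log2 difference -0.33 ± 0.13 SE, edgeR adjusted p = 0.0608). Without that replicate the difference was -0.46 (edgeR adjusted p = 0.00751), and DESeq2 on all libraries gave an adjusted p of 0.0419. At 48 hpa it reached 28.8 ± 3.90 CPM in control and 15.6 ± 2.03 CPM in the bmp-labelled libraries.

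The TDG match (dd_Smed_v6_10660_0_1), a glycosylase that removes mispaired thymine from DNA, showed a level course after 16 hpa. Its mean in the bmp-labelled libraries was 48.4 ± 2.84, 48.1 ± 5.01 and 46.3 ± 1.62 CPM for 16, 24 and 48 hpa. In control the same times gave 43.7 ± 3.34, 52.1 ± 3.01 and 80.6 ± 4.49 CPM. The RNF8 match (dd_Smed_v6_10019_0_1), a ubiquitin ligase that acts at double-strand breaks, measured 6.15 ± 0.567 CPM in control and 5.16 ± 0.597 CPM in the bmp-labelled libraries at 24 hpa (log2 difference -0.27 ± 0.12 SE, edgeR adjusted p = 0.127). At 48 hpa it measured 8.45 ± 0.725 and 5.06 ± 0.736 CPM.

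**Figure D5:**
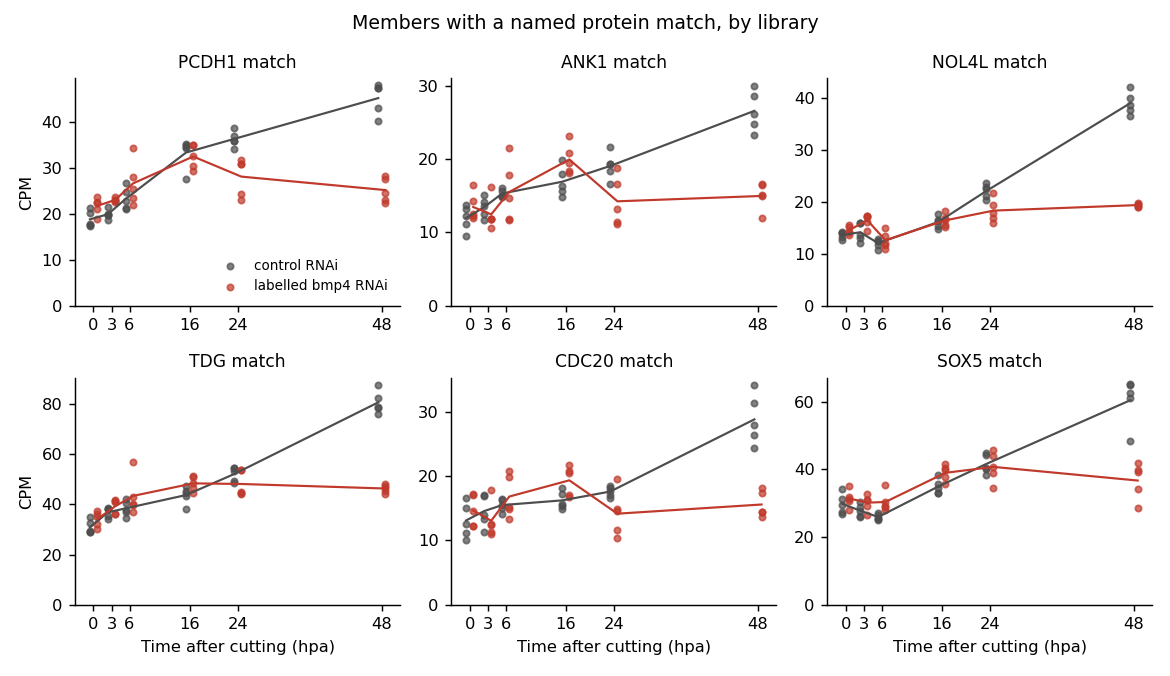
CPM of 6 members with a protein match against time after cutting, in control RNAi (grey) and in the bmp-labelled libraries (red). Points are libraries and lines join group means. At 24 hpa PCDH1 is apart, ANK1 and NOL4L pass the test with 1 bmp-labelled library within the control range, and TDG, CDC20 and SOX5 do not pass it. All 6 are apart at 48 hpa, a time whose libraries the rule used.

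The last group handles RNA. The SNRPF match (dd_Smed_v6_1056_0_1), a core protein of the spliceosome, varied widely between replicates, with 15.7, 8.06, 21.7, 8.04 and 9.10 CPM in control at 0 hpa. At 24 hpa it measured 15.4 ± 2.00 CPM in control and 11.4 ± 5.30 CPM in the bmp-labelled libraries, a difference within that spread (edgeR adjusted p = 0.35). The EIF4E2 match (dd_Smed_v6_10784_0_1), a protein that binds the cap of messenger RNA, measured 5.30 ± 0.480 and 4.45 ± 0.826 CPM at 24 hpa (edgeR adjusted p = 0.377), and 8.32 ± 1.47 and 5.52 ± 1.27 CPM at 48 hpa, where the ranges of both conditions overlapped.

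Of the remaining members with a match, DUF3872 (dd_Smed_v6_10376_0_1) carries only a domain of unknown function and measured 45.6 ± 5.37 CPM in control and 27.8 ± 3.67 CPM in the bmp-labelled libraries at 48 hpa. The match to Cyp2a22 (dd_Smed_v6_100966_0_1), a mouse cytochrome P450, was too rare to be tested. It had 0 counts in the 5 control libraries at 0 hpa, which allows up to 0.0335 CPM over the group, and 0.563, 0.665, 0.735, 0.950 and 0.733 CPM in control at 48 hpa. In the bmp-labelled libraries at 48 hpa, a time the rule used, it measured 0.054, 0.105, 0.139, 0.045 and 0.164 CPM, all below every control.

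The other 200 members were not in the annotations used here, and those with the largest rise and the largest loss are given by their identifiers. The largest control rise belonged to dd_Smed_v6_36433_0_1, at 0.117, 0.263, 0.474, 0.393 and 0.321 CPM at 0 hpa and 5.99, 7.72, 6.30, 5.96 and 6.96 CPM at 48 hpa. At 48 hpa the bmp-labelled libraries measured 0.754, 1.21, 0.602, 1.13 and 1.04 CPM. At 24 hpa it was still low in both conditions, at 0.680 ± 0.094 CPM in control and 0.518 ± 0.168 CPM in the bmp-labelled libraries. The rule held every control change at 24 hpa under 1 log2 unit, so most of a rise this large had to come later.

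Transcript dd_Smed_v6_12674_0_1, under the same limit, measured 2.87 ± 0.357 CPM in control just after the cut and 5.69 ± 0.858 CPM by 24 hpa. At the last time it measured 17.95 ± 4.21 CPM in control. At 24 hpa the bmp-labelled libraries measured 3.81, 9.80, 4.07, 3.90 and 3.89 CPM, so that replicate 2 was above every control library and the others below. Its log2 difference at 24 hpa was -0.19 ± 0.19 SE with all libraries (edgeR adjusted p = 0.597) and -0.55 without replicate 2 (edgeR adjusted p = 0.0237). At 48 hpa it measured 4.15 ± 0.570 CPM in the bmp-labelled libraries.

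The same replicate was the highest of its group for dd_Smed_v6_11823_0_1, at 24.8 CPM against 14.8 to 17.0 CPM in the other 4. This transcript rose from 10.3 ± 0.919 to 49.5 ± 4.57 CPM in control and from 13.02 ± 1.90 to 17.9 ± 0.736 CPM in the bmp-labelled libraries between 0 and 48 hpa. Its log2 difference at 24 hpa was -0.22 ± 0.10 SE (edgeR adjusted p = 0.147) and -0.37 without replicate 2 (edgeR adjusted p = 0.00332). Transcript dd_Smed_v6_13357_0_1 measured 10.01 ± 2.07 CPM in control and 3.44 ± 1.13 CPM in the bmp-labelled libraries at 48 hpa, the latter close to its 3.51 ± 1.19 CPM at 0 hpa.

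Many members varied together between replicates. The deviation of each library from its group mean was compared between each of the 137 members that averaged at least 5 CPM and the mean of the other members, over 60 libraries. The median Pearson's r was 0.53, with quartiles of 0.11 and 0.72. For the 11144 other transcripts of at least 5 CPM the median with the same mean was 0.21, and for the 44 transcripts among them that kept the rise it was 0.07. The points share library, depth and scaling, so these values are a description. Bmp-labelled replicate 3 at 6 hpa stood highest of its group over the members, at 0.46 log2 units against 0.07 to 0.25 in the other 4.

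Lists of named transcripts are given by counts. All but the mitochondrial list were drawn from the 1200 annotated transcripts, of which 1.33% were members, so few members could be among them. The rule used the 48 hpa libraries, so lower calls of members at that time were set by it. Of 13 transcripts matched to proteins of cell division and DNA replication that were tested, 7 were called lower in the bmp-labelled libraries at 48 hpa and 0 higher, with a median of -0.35 log2 units, and the member CDC20 was among them (edgeR, 0 higher also at an unadjusted p under 0.05 and by DESeq2). Without CDC20 6 of 12 were called lower, with a median of -0.27. In control 7 of the 13 were called higher at 48 than at 0 hpa, beside 20.9% of all transcripts. CDC20 is among these 7, and the rule required its control rise. The 6 called lower at 48 hpa besides CDC20 included AURKC, a kinase of dividing cells, at -0.51 ± 0.15 SE (edgeR adjusted p = 0.00506). They also included RNASEH2A, which cuts RNA paired with DNA, at -0.59 ± 0.10 SE (edgeR adjusted p = 3.42e-06). At 24 hpa RNASEH2A alone of the 13 was called lower, beside 6.5% of all transcripts. The list median was -0.18, and 6 were lower at an unadjusted edgeR p under 0.05.

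Of 16 transcripts matched to transcription factors of tissue identity, 8 were called lower at 48 hpa, among them the members SOX5 and BCL11A, and 2 were called higher, with a median of -0.26. Without these members 6 of 14 were called lower and 2 higher, with a median of -0.20. Of 19 transcripts matched to ribosome assembly proteins of the nucleolus, 12 were called lower and 1 higher at 48 hpa, with a median of -0.25, and none of the 19 was a member. Of 18 matched to axis signals, their receptors and inhibitors, 6 were called lower and 3 higher, with a median of -0.13. Over all transcripts 18.6% were called lower and 17.3% higher at 48 hpa, with a median of 0.01.

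Lists of differentiated cell types, from the same annotations, were checked beside the members. Of 14 cilia transcripts tested, 13 were called higher in the bmp-labelled libraries at 24 hpa, with a median of 0.43 log2 units. Over all transcripts 10.2% were called higher and 6.5% lower at that time. The summed level of all 25 listed cilia transcripts was 324.5 to 384.9 CPM in control and 428.6 to 528.7 CPM in the bmp-labelled libraries at 0 hpa, and 367.3 to 413.8 CPM and 425.5 to 605.6 CPM at 24 hpa. Its part in the members' difference was not tested.

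Of 13 neuronal transmission transcripts 6 were called higher at 24 hpa, beside 10.2% of all transcripts, with a median of 0.13. Their sum was 377 to 417.3 CPM in control and 414.1 to 461.0 CPM in the bmp-labelled libraries. Of 11 muscle and matrix transcripts 3 were called lower at 24 hpa, beside 6.5% of all transcripts, with a median of -0.13. Their sum was 3995 to 4333 CPM in control and 3247 to 3895 CPM in the bmp-labelled libraries. At 0 hpa that sum was 2609 to 3524 CPM and 1810 to 2299 CPM. At 48 hpa 2 of the 11 were called lower and 4 higher, with a median of 0.05, while of the neuronal transcripts 3 were called lower and 4 higher, and of the cilia transcripts 12 higher. Of the 8 mitochondrial transcripts 0 were called at 24 hpa and 0 at 48 hpa by edgeR (0 and 1 at an unadjusted p under 0.05, and 0 and 1 by DESeq2), with medians of -0.03 and 0.40. Whether these lists share a source with the members was not tested.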

How the data were processed

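Per the labels and the study's methods, reads were 50 bases long. The submitters' processing notes name CASAVA 1.9, cutadapt 1.8, Bowtie and SAMtools 1.6, and the study's methods name bowtie, in another version than the notes, and bedtools. Reads were aligned to the dd_Smed_v6 transcriptome, and the authors counted reads per contig and summed contigs of a group. The deposited values are raw counts, and the sources used here do not say whether counting used strand. Transcripts with near-identical copies may share reads and are uncertain. The study's own tests were pairwise, with DESeq. There were 0 columns without a sample.

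The members, gene lists and tests were chosen with earlier results of these data known. Levels are CPM by library total. Tests used 1 fit of all 60 libraries with a mean per group (edgeR 4.0.16 quasi-likelihood, robust, TMM factors from 0.926 to 1.12, R 4.3.3), Benjamini-Hochberg adjusted over 18510 transcripts that passed edgeR's filter on low counts (minimum count 10). These held 99.9% of counts, 212 of the 216 members and all 65 transcripts that kept the rise. The biological coefficient of variation was 12.5%. Libraries of a group differed beyond sampling noise in all 120 pairs (lowest chi-square per degree of freedom 3.14), so none was counted as a repeat. The fit was tested on simulated data, but the outcome is not given here and nothing is read from it.

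Named were the members with a protein match or domain in the study's annotations, then, among other members of at least 5 CPM in control at 48 hpa, the 2 with the largest control rise and the 2 lowest against control at 48 hpa, then bmp4 and equinox. The most abundant member was added after its values were seen. Alternatives were DESeq2 1.42.0, its size factors, no filter, the replicate number as a block, only the 10 libraries compared, and each library left out. Library totals alone, leaving out libraries with a high bmp4 transcript at 3, 16 and 24 hpa, and the step from 16 to 24 hpa were chosen after seeing the data. The 8 lists came from protein names in the annotations, except the mitochondrial transcripts, which the study listed.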

Additional observations from a re-analysis of the deposited data

Results flagged for a closer look

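For 19 of 264 groups of 5 libraries, a single library lay far from the other 4, where chance gives about 1 in 20 groups. Among libraries labelled bmp4 RNAi at 24 hpa, replicate 2 was high for dd_Smed_v6_12674_0_1 (9.80 CPM) and dd_Smed_v6_11823_0_1 (24.8 CPM), and replicate 1 was low for the mean of the transcripts that kept the rise (0.47 log2 units above control at 0 hpa). At 3 hpa replicate 2 of these libraries was high for ANK1 (16.2 CPM), CDC20 (17.9 CPM) and dd_Smed_v6_13357_0_1 (5.17 CPM). At 0 hpa replicate 5 was high for dd_Smed_v6_12674_0_1 (6.16 CPM) and dd_Smed_v6_11823_0_1 (16.2 CPM), and replicate 2 for RNF8 (5.27 CPM). Replicate 3 at 6 hpa was high for LRRC4B (27.5 CPM), replicate 1 at 16 hpa for BCL11A (13.3 CPM), and replicate 1 at 48 hpa was low for equinox (0.646 CPM).

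Among control libraries, replicate 5 was low for PCDH1 at 16 hpa (27.5 CPM) and for SOX5 at 48 hpa (48.5 CPM). Replicate 3 was low for BCL11A at 16 hpa (9.39 CPM), for EIF4E2 at 6 hpa (3.17 CPM) and for equinox at 0 hpa (3.85 CPM). Replicate 4 was low for dd_Smed_v6_11823_0_1 at 6 hpa (14.03 CPM), and replicate 2 was high for dd_Smed_v6_36433_0_1 at 24 hpa (0.841 CPM).

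The change from 0 to 24 hpa was called different between conditions for 4 named members. This comparison rests on the 0 hpa libraries and the control libraries at 24 hpa, which the rule used in a way that favoured a smaller change where bmp4 RNAi was the label. In those libraries it was smaller, by -0.59 ± 0.12 log2 units (SE) for PCDH1 (edgeR interaction, adjusted p = 0.0017) and by -0.60 ± 0.16 for ANK1 (edgeR adjusted p = 0.0352). It was smaller by -0.38 ± 0.11 for NOL4L (edgeR adjusted p = 0.0473) and by -0.54 ± 0.15 for dd_Smed_v6_11823_0_1 (edgeR adjusted p = 0.0308). The change from 0 to 48 hpa differed by -2.99 ± 0.75 for bmp4 (edgeR adjusted p = 0.003), whose 0 hpa level went against the label, and by -0.74 ± 0.25 for equinox (edgeR adjusted p = 0.0289).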

How the results depend on the processing

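With 216 members by the stated rule, 140 were left with TMM-scaled library sizes and 89 when under 25% of the rise had to be kept, and leaving out each replicate number gave 192 to 264. The 74 members called lower at 24 hpa became 58 to 77 under 7 other settings and 58 to 79 with 1 library left out. Called lower at 3 hpa were 4 with no filter, 3 with library totals alone, 1 without the libraries with a high bmp4 transcript, and 4 to 8 with 1 library left out. At 6 hpa they were 15 with totals alone, 15 with only the 10 libraries compared, and 16 to 27 with 1 left out. At 16 hpa they were 8 with totals alone, 8 without the libraries with a high bmp4 transcript, and 8 to 22 with 1 left out. Within the libraries labelled bmp4 RNAi, members higher at 3 than at 0 hpa were 10 with no filter, 29 with totals alone, 8 with only the 10 libraries, 1 without the libraries with a high bmp4 transcript, and 9 to 24 with 1 left out. At 6 hpa they were 25 with only the 10 libraries and 41 to 59 with 1 left out, at 16 hpa 109 to 126 and at 24 hpa 91 to 110. From 3 to 24 hpa they were 64 with only the 10 libraries, 33 without the libraries with a high bmp4 transcript, and 83 to 100 with 1 left out. Members lower at 24 than at 16 hpa were 25, 2, and 20 to 47 under the same 3 settings. Members that rose less than in control at 6 hpa were 0 with no filter, totals alone or the replicate block, and 0 to 1 with 1 left out, as at 16 hpa, where they were 0 without the libraries with a high bmp4 transcript, and 11 to 30 at 24 hpa. Members called higher against control were 0 to 15 at 3 hpa, 6 to 16 at 6 hpa, 1 to 18 at 16 hpa and 2 to 6 at 24 hpa under other settings. The bmp4 transcript at 16 hpa, at 0.35 log2 units above control, stood at -1.59 (edgeR adjusted p = 0.0108) without the 2 libraries in which it was high. The cause of these shifts was not tested.

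The replicate numbers did not pair the libraries, since 4 of 30 same-numbered pairs deviated together with r over 0.1 (range -0.21 to 0.313) and 7 of 30 libraries correlated best with their own number. With the replicate block 72 members were called lower at 24 hpa. In comparisons with 0 hpa the libraries of that time were kept, since all 5 there had a high bmp4 transcript. Members under 1 CPM carry few counts, which limits single calls among them.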
